A study of Homo sapiens with 6 samples.

Results

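Transcripts of the cytosolic ribosomal proteins were read by 86 probes of 68 genes, among 48701 probes on the array and 18774 genes that a probe names alone. A probe was a member if its annotated symbol was RPL, RPS or RPLP followed by a number. A suffix of A, X or L and a further digit were allowed, so the RPS6K kinases and the mitochondrial ribosomal proteins were not members. The large subunit had 55 probes of 44 genes and the small subunit 31 probes of 24 genes. No probe carried RPLP0, RPSA or RPL7L1 as its only symbol in the annotation used, and these genes were not analysed here. HEK293T, the cell studied, is a human line derived from embryonic kidney into which the large T antigen of the virus SV40 was introduced. Of the 6 arrays, 2 held RNA of untransfected cells (the control), 2 held RNA of cells given 2 µg of a clone of the miR-23a/27a/24-2 cluster and 2 held RNA of cells given 4 µg of it, in a well of a 6-well plate, and the submitters called the arrays of a group biological duplicates. No group given an empty plasmid was analysed here, so the act of transfection, the plasmid and the microRNAs it carried cannot be told apart. Duplicates lay in neighbouring positions of 1 chip, so chip position and group cannot be told apart either. No probe was annotated to MIR23A, MIR27A or MIR24-2, and the level of the microRNAs themselves was not analysed here.

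A cytosolic ribosome is made of a large and a small subunit, each a core of ribosomal RNA to which the ribosomal proteins are added in the nucleolus and then in the cytoplasm. The mRNAs of most ribosomal proteins start at the cap with a C followed by an unbroken stretch of pyrimidines, the terminal oligopyrimidine (TOP) tract, through which mTOR signalling and the RNA-binding protein LARP1 regulate their translation and stability together. A few proteins have paralogues that can take their place in the ribosome, such as RPL22L1 for RPL22, RPL26L1 for RPL26, RPL39L for RPL39 and RPS27L for RPS27. MicroRNAs bind mRNAs mainly through the seed near their 5′ end, which lowers the stability or the translation of the mRNA.

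The mature microRNAs of the transfected cluster are shown because the clone given at both doses carried that cluster. The sequences are those of RefSeq on GRCh38.p14, all from the minus strand of chromosome 19, printed 5′ to 3′ with the seed (bases 2 to 8) in capitals. The seeds of miR-23a and miR-27a share their first bases, and that of miR-24 is unrelated in letters.
hsa-miR-23a-3p (chr19:13836595-13836615): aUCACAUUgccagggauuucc
hsa-miR-27a-3p (chr19:13836447-13836467): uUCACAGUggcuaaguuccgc
hsa-miR-24-3p (chr19:13836289-13836310): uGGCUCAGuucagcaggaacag

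The starts of the member genes are shown because the TOP tract is the sequence that most of them have in common and that the choice of members did not use. Each stretch runs from 12 bases before the annotated RefSeq start to 18 bases from it, on the gene's own strand of GRCh38.p14, so that the annotated start is base 13. Capitals mark an unbroken run of at least 5 pyrimidines (C or T, searched on the gene's strand only) that covers the annotated start. First come genes whose probe was called at a dose and whose start held such a run.
RPL14 (chr3:40457327-40457356, plus strand): cgggTCTTCTTCCTTCTCgcctaacgccgc
RPL29 (chr3:51995878-51995907, minus strand): cgcagCCCCTTTCTCTTCCggttctaggcg
RPL38 (chr17:74203666-74203695, plus strand): ggaagtctcgTTCTTTTTCgtccttttccc
RPL7A (chr9:133348206-133348235, plus strand): caaTTCCCTTTCCTTTCTCTCTCCTCCCgc
RPL37A (chr2:216498832-216498861, plus strand): ccgcgTCTCTTCCTTTCTgggctcggacct
RPS21 (chr20:62387091-62387120, plus strand): gactagctgCTTCCTTTCTCTCTCgcgcgc
RPS23 (chr5:82278337-82278366, minus strand): tgcggtgCTTCTCTCTTTCgctcaggcccg
RPS27 (chr1:153990750-153990779, plus strand): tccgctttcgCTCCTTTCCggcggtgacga
RPS7 (chr2:3575248-3575277, plus strand): tccgCCCTCCTCCTCgcgctgtttccgcct
The next stretches set RPL22 and RPL26 beside their paralogues RPL22L1 and RPL26L1, followed by RPL39 and RPS27L, which are not a pair. RPS27L is the paralogue of RPS27, printed above. RPL26L1 and RPS27L were called and held no run at the annotated start.
RPL22 (chr1:6199578-6199607, minus strand): ttcgctcaCCTCCCTTTCTaactccgctgc
RPL22L1 (chr3:170870178-170870207, minus strand): ggccgtagCTTCCTCTCTgctctcgcggcc
RPL26 (chr17:8383176-8383205, minus strand): cagcgtgtagTTCTCTTCCCTTTTgcggcc
RPL26L1 (chr5:172958717-172958746, plus strand): cttccaggggtcggcgaacgaaacgcggag
RPL39 (chrX:119791613-119791642, minus strand): ttccgccagCTTCCCTCCTCTTCCTTTCTC
RPS27L (chr15:63157460-63157489, minus strand): ttgatgccgagcgcagatcgcttgcagctt
Of the 57 member genes with an entry, 38 (66.67%) had such a run, against 2673 (9.79%) of 27305 genes with an entry of the same length. The run was present in 22 of 35 large subunit genes and in 16 of 22 small subunit genes. Among members called at 2 µg or 4 µg, 9 of 11 with an entry had it (81.82%), and among members that were kept and not called, 27 of 41 (65.85%). RPL37, RPL39L and RPL23A are called genes that are named only. These letters describe the annotated starts and were not measured in these cells.

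The scanner value is the deposited mean intensity of the beads of a probe, before the background correction made here. The detection p-value says how it stands against the negative control beads. Probes went into the test where the duplicates of 1 group or more both had a detection p under 0.01, which kept 73 member probes of 62 genes, 44 probes of 39 genes for the large subunit and 29 probes of 23 genes for the small, out of 10021 kept probes in all. All but 1 of the kept members were detected on all 6 arrays, the exception being the dimmer probe of RPL34, detected on 5. Of the 13 member probes that were not kept, 12 were detected on no array, and for 6 genes (RPL10L, RPL22L1, RPL3L, RPL32, RPL36A and RPS26) no probe was kept. RPL32 and RPL36A are core proteins of the large subunit, and a probe below detection sets no level for its gene.

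The kept members were far brighter than the other probes. Their median scanner value was between 6373 and 8205 on the 6 arrays, against 432 to 529 for all kept probes, and 4 to 6 of the 20 brightest probes of each array were members. RPL39, a small protein that lines the tunnel through which the new peptide leaves, was the brightest probe of both control arrays, with scanner values of 44146 and 44775. It read 37897 and 37695 at 2 µg and 43162 and 40485 at 4 µg, so that its controls lay above all 4 transfected arrays. RPL6, a large subunit protein, was the brightest probe of both 2 µg arrays, with 42097 and 43191 for its brighter probe, against 38804 and 40546 in the control and 43318 and 44034 at 4 µg. No saturation flag was among the values used. The highest scanner value differed from array to array, from 42097 to 44775. Each value is a mean over beads, so single saturated beads would not show in it, and saturation was not tested.

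Between 7 and 17 members per array had a scanner value of 20000 or more, and 2 or 3 lay above 32768, the middle of a 16-bit scale. Over the 6 arrays 4 members passed that middle at least once, the bright probes of RPL39, RPL6, RPS10 and RPS3. Over all kept probes, the size of the log2 change at 2 µg was alike in the classes under 5000 and smaller in those above. Its median size was 0.32 for 5178 probes under 500, 0.35 for 2010 from 500 to 1000, 0.32 for 2369 from 1000 to 5000, 0.23 for 310 probes from 5000 to 10000, 0.19 for 116 from 10000 to 20000, 0.13 for 29 probes from 20000 to 32768 and 0.07 for 9 probes above that. At 4 µg the same 7 classes had a median size of 0.26, 0.24, 0.22, 0.16, 0.14, 0.07 and 0.11, so that the 9 brightest probes did not continue the decline. The ratio of the scanner values of control replicate 2 to replicate 1 also moved with brightness, with a median of 1.04 under 500, 1.13 from 20000 to 32768 and 1.08 above 32768. In the same classes this ratio was 0.948, 1.021 and 0.992 for the 2 µg arrays. For the 4 µg arrays it was 1.047, 0.99 and 0.985, so the pairs did not move alike. Members filled 10 of the 29 places in the class from 20000 and 2 of the 9 above it. The plot of change against scanner value gives this spread for all kept probes.

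**Figure D1:**
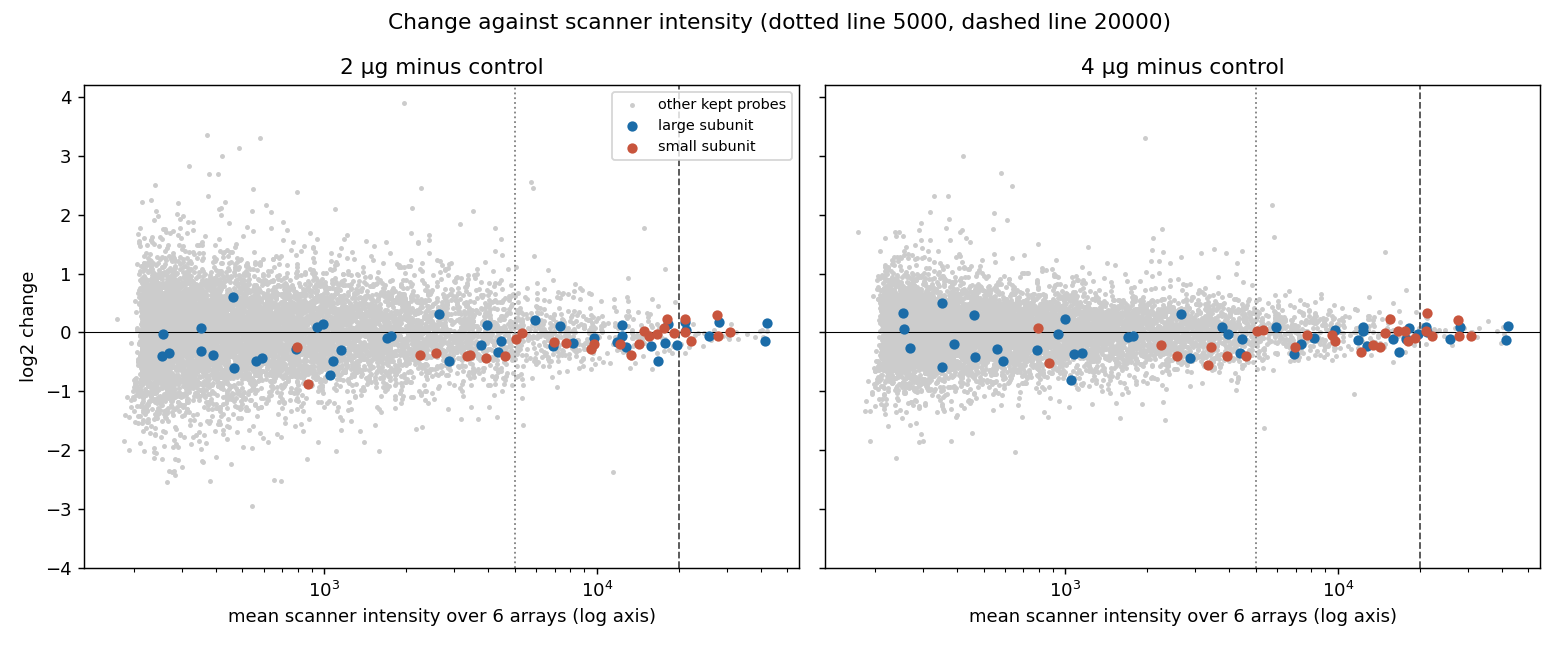
Log2 change at 2 µg (left) and 4 µg (right) against the control, on the vertical axis, by the mean scanner value over 6 arrays on a log axis. Grey points are the other kept probes, blue points large subunit probes and red points small subunit probes, with lines at 5000 and 20000. The grey cloud narrows to the right, where most members lie, and the members with the largest falls lie left of 5000.

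At 2 µg most ribosomal protein transcripts stood slightly below the control, and few passed the test. Of 73 member probes 12 fell and 1 rose, 17.8% in all, while 39.6% of the 10021 kept probes were called, 19.7% lower and 19.8% higher (limma, Benjamini-Hochberg adjusted p under 0.05, n = 2 arrays per group). The log2 change was below 0 for 52 members (71.2%), against 49.7% of kept probes, and the median change of the members was -0.16, against 0.0035 over all kept probes. The median normalized log2 value of the members was 12.73 and 12.94 on the control arrays and 12.72 on each 2 µg array, so that control replicate 1 stood near the 2 µg arrays and control replicate 2 above them. The shift was of the same size as the spread between duplicates, whose pooled SD of the array median was 0.15 for the large and 0.12 for the small subunit genes. Members with both 2 µg arrays below both controls numbered 33 (45.2%, against 34.2% of kept probes), and 9 had both above (12.3%, against 34.3%). More than 1.5-fold separated 4 members from the control (5.48%, against 25.2%). Cells that hold less of these mRNAs and a smaller share of cells that hold them cannot be told apart in RNA of a whole well.

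The medians of both subunits lay below 0. Among large subunit probes 7 fell, 1 rose and 36 were not called, with a median log2 change of -0.15, and among small subunit probes 5 fell and 24 were not called, with a median of -0.17. No small subunit probe was called higher by limma, nor had any an unadjusted p under 0.05 in that direction. The middle of the large subunit probes ran from -0.32 to 0.10 between the lower and upper quartiles, and that of the small from -0.34 to -0.01. By gene, with the brightest kept probe standing for each, 7 of 39 large subunit genes and 4 of 23 small subunit genes fell, with medians of -0.16 and -0.11. These medians leaned on single arrays, at -0.09 and -0.05 without control replicate 2 and at -0.09 and -0.04 without 2 µg replicate 1. The difference between the subunits was not tested.

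Brightness moved with this result. Of the 41 members with a mean scanner value of 5000 or more 2 were called, both lower (4.88%), and their median log2 change was -0.06. Of the other kept probes as bright, 105 of 423 were called (24.8%), a comparison added after the data had been seen. Of the 32 members under 5000, 10 fell and 1 rose (34.4%), with a median of -0.33 and 26 changes below 0 (81.2%). Other kept probes under 5000 were called in 40.4% of cases, with 49.5% of changes below 0.

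**Figure D2:**
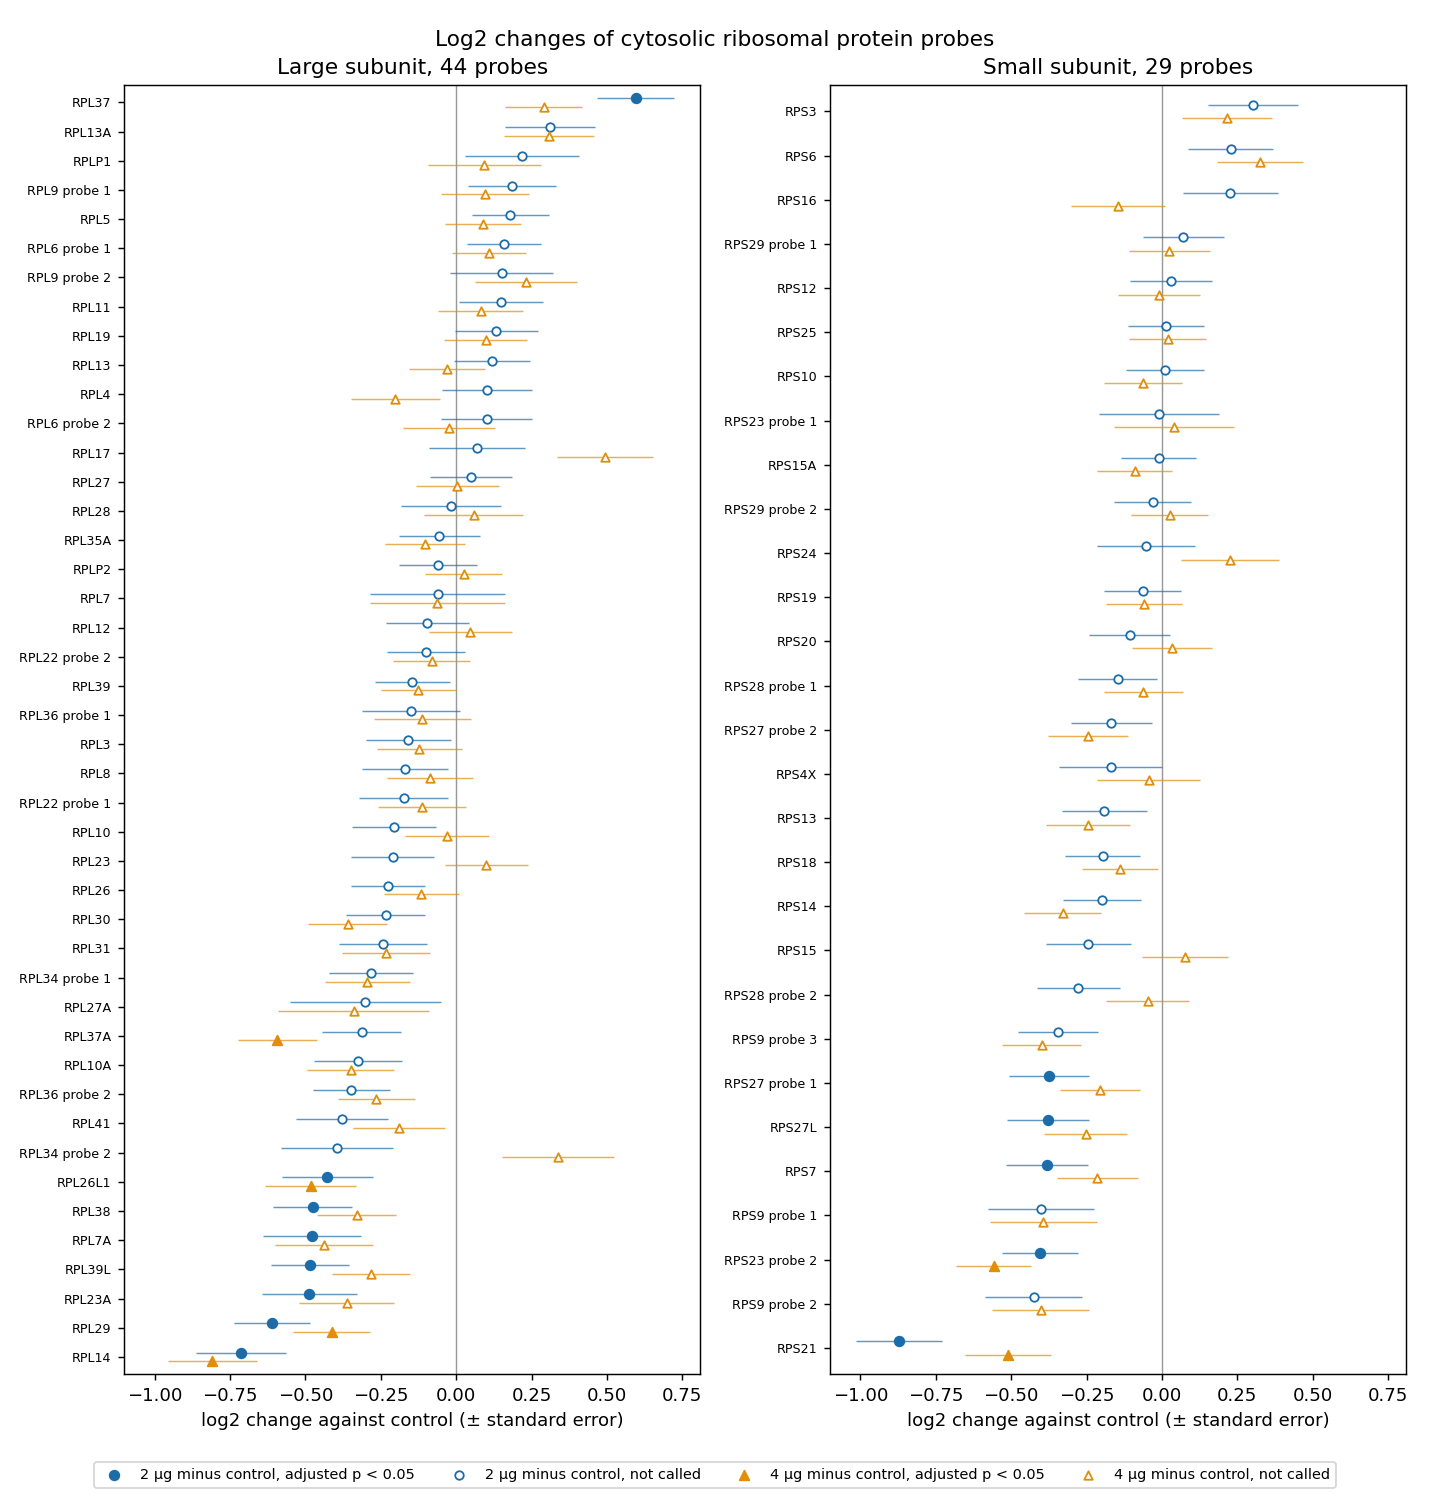
Log2 change against the control with its standard error, for every kept probe of the large subunit (left) and small subunit (right), ordered by the change at 2 µg. Circles are 2 µg and triangles 4 µg, filled where the adjusted p was under 0.05, and probes of 1 gene are numbered from the brightest. RPS21 and RPL14 lie lowest at 2 µg and RPL37 highest.

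Among large subunit genes, RPL14 had the largest fall. Its probe (ILMN_1726460) stood at normalized log2 values of 10.31 and 10.31 in the control, 9.71 and 9.48 at 2 µg and 9.65 and 9.35 at 4 µg. All 4 transfected arrays lay below both controls. The fall at 2 µg was 1.64-fold, a log2 change of -0.71 (SE 0.15, adjusted p = 0.00371).

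RPL29, a large subunit protein that is also known as a heparin-binding protein of the cell surface, gave 8.71 and 8.65 in the control, 8.12 and 8.01 at 2 µg and 8.29 and 8.23 at 4 µg (ILMN_1737517). Again no transfected array reached a control, and the 2 µg arrays were the lowest. The log2 change at 2 µg was -0.61 (SE 0.13, adjusted p = 0.00364).

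RPL37, a zinc-finger protein of the large subunit, was the only member called higher at 2 µg. Its values were 8.01 and 8.03 in the control, 8.69 and 8.54 at 2 µg and 8.28 and 8.34 at 4 µg (ILMN_1800796). The 4 µg arrays lay between the other groups, without overlap with either. At 2 µg the rise was 1.51-fold, a log2 change of 0.59 (SE 0.13, adjusted p = 0.00446).

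RPL38, known in the mouse for its part in the translation of Hox mRNAs, was the brightest large subunit probe to be called, with scanner values of 18427 and 22818 in the control, 12934 and 13408 at 2 µg and 15878 and 17088 at 4 µg. On the normalized scale these were 14.17 and 14.32, 13.80 and 13.73, and 13.86 and 13.96. The groups did not overlap, and the transfected arrays were all below the control. The log2 change at 2 µg was -0.48 (SE 0.13, adjusted p = 0.0149), which missed the threshold when control replicate 2 (adjusted p = 0.0924) or 2 µg replicate 2 (adjusted p = 0.0548) was left out.

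RPL39L, the paralogue of RPL39 that is best known from the testis, fell from 8.95 and 8.98 to 8.55 and 8.40 at 2 µg, a log2 change of -0.49 (SE 0.13, adjusted p = 0.0133). Leaving out either control array ended the call (adjusted p = 0.0528 and 0.0628), as did leaving out 2 µg replicate 2 (0.063). RPL23A, which sits at the exit of the peptide tunnel where the signal recognition particle docks, stood at 9.91 and 10.36 in the control and at 9.64 and 9.65 at 2 µg. The controls were far apart, and both were above the 2 µg arrays. Its log2 change was -0.49 (SE 0.16, adjusted p = 0.0308), and it was called in 2 of the 6 fits that left out an array. The adjusted p was 0.227 without control replicate 2, 0.0948 and 0.0875 without replicates 1 and 2 of 2 µg, and 0.0535 when 4 µg replicate 1 was left out.

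RPL7A, a large subunit protein bound to the ribosomal RNA, gave 11.56 and 11.81 in the control and 11.24 and 11.17 at 2 µg, without overlap. Its log2 change was -0.48 (SE 0.16, adjusted p = 0.0378). RPL7A was called in 2 of the 6 fits that left out an array, with an adjusted p of 0.0527 and 0.218 without control replicate 1 and 2 and of 0.0842 and 0.128 without 2 µg replicate 1 and 2. RPL26L1, the paralogue of RPL26, stood at 8.94 and 9.27 in the control, 8.75 and 8.61 at 2 µg and 8.71 and 8.54 at 4 µg. All transfected arrays were below both controls, which differed from each other by more than the nearest control and 2 µg arrays did. At 2 µg its log2 change was -0.43 (SE 0.15, adjusted p = 0.0441), and among the fits that left out an array it was called in the 1 that left out control replicate 1. The adjusted p of RPL26L1 was 0.268 without control replicate 2, 0.0691 and 0.165 without replicates 1 and 2 of 2 µg, and 0.069 and 0.0607 without those of 4 µg.

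In the small subunit, RPS21 had the largest change of all members at 2 µg. It is a small protein on the body of the subunit that takes part in the processing of its ribosomal RNA. Its probe (ILMN_1800573) gave 9.83 and 10.06 in the control, 9.19 and 8.96 at 2 µg and 9.39 and 9.48 at 4 µg, so the 3 groups did not overlap and 2 µg was the lowest. The fall at 2 µg was 1.83-fold, a log2 change of -0.87 (SE 0.14, adjusted p = 0.000996).

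Of RPS23, which reaches into the decoding centre, 2 probes of like brightness differed. The dimmer (ILMN_1772459) stood at 11.99 and 11.90 in the control, 11.56 and 11.53 at 2 µg and 11.39 and 11.39 at 4 µg. The brighter gave 12.25 and 12.36, 11.97 and 12.63, and 12.21 and 12.48, with the groups overlapping. At 2 µg the dimmer fell by 0.40 on the log2 scale (SE 0.12, adjusted p = 0.0257), and the brighter had a change of -0.01 (SE 0.20, adjusted p = 0.974). The call of the dimmer probe was lost without each array in turn, with adjusted p between 0.0501 and 0.115.

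RPS27, a zinc-finger protein of the small subunit, and its paralogue RPS27L, a p53 target gene, were both called by a narrow margin. The brighter RPS27 probe stood at 13.82 and 13.91 in the control, 13.42 and 13.56 at 2 µg and 13.60 and 13.73 at 4 µg. Its log2 change at 2 µg was -0.38 (SE 0.13, adjusted p = 0.0442), and that of the dimmer probe was -0.17 (SE 0.13, adjusted p = 0.345). Both probes had all transfected arrays below both controls.

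RPS27L gave 11.81 and 11.94 in the control, 11.41 and 11.58 at 2 µg and 11.71 and 11.53 at 4 µg. No transfected array reached the lower control. The log2 change at 2 µg was -0.38 (SE 0.14, adjusted p = 0.0495). RPS7, a protein that binds the p53 regulator MDM2 and is mutated in Diamond-Blackfan anaemia, gave 11.18 and 11.29 in the control and 10.91 and 10.79 at 2 µg. Its log2 change was -0.38 (SE 0.14, adjusted p = 0.045). The calls of RPS27, RPS27L and RPS7 were lost without each of the 6 arrays in turn, with adjusted p of 0.0522 to 0.183, 0.0518 to 0.203 and 0.0642 to 0.176.

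Of the 13 calls at 2 µg, those of RPL14, RPL29, RPL37 and RPS21 held without each array and in each of the 13 other settings tried, and the other 9 did not. RPS9, a protein of the body of the small subunit, was the only gene with 3 kept probes, and they moved alike without passing the test. Their log2 changes at 2 µg ranged from -0.43 to -0.34 and at 4 µg from -0.40 to -0.39, with the lowest adjusted p at 0.0564. The plot of the called probes shows each array of the 14 probes called at either dose.

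**Figure D3:**
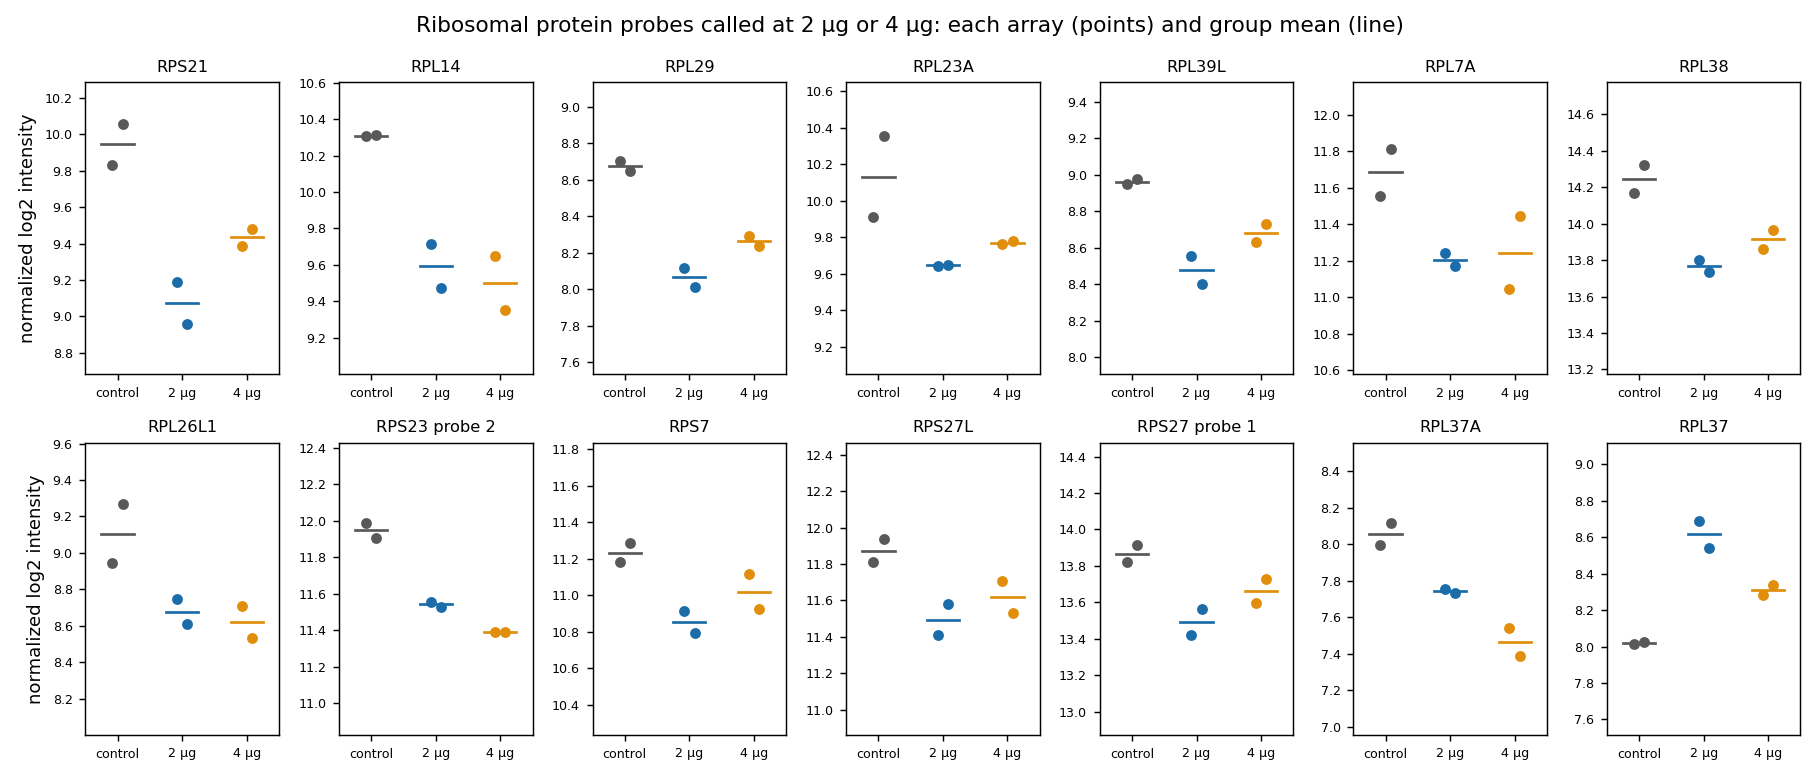
Normalized log2 intensity of each array (points) and group mean (line) for the 14 member probes called at 2 µg or 4 µg against the control, each panel on its own axis of equal height. Apart from RPL37, the control points lie above all transfected points in every panel.

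Several well-known ribosomal proteins gave no call. RPL5 and RPL11, which form a particle with the 5S ribosomal RNA and bind MDM2 when they are not in ribosomes, had log2 changes of 0.18 and 0.15 at 2 µg and of 0.09 and 0.08 at 4 µg (SE 0.13 and 0.14). RPL5 stood at 14.66 and 14.67 in the control, 14.80 and 14.89 at 2 µg and 14.80 and 14.71 at 4 µg, with every transfected array slightly above both controls. RPS19, the gene most often mutated in Diamond-Blackfan anaemia, had a change of -0.06 at both doses (SE 0.13). The stalk proteins RPLP1 and RPLP2, which recruit translation factors to the large subunit, had changes of 0.22 (SE 0.19) and -0.06 (SE 0.13) at 2 µg, with overlapping groups.

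RPL13A, often used as a reference gene in quantitative PCR, gave 10.90 and 11.23 in the control, 11.47 and 11.28 at 2 µg and 11.36 and 11.39 at 4 µg. All transfected arrays lay above both controls, with a log2 change of 0.31 at each dose (SE 0.15, adjusted p = 0.124 and 0.167). RPS3, at the channel where mRNA enters, had the highest change of the small subunit at 2 µg, 0.30 (SE 0.15, adjusted p = 0.132). RPS6, the substrate of the S6 kinases, had changes of 0.23 and 0.32 (SE 0.14, adjusted p = 0.228 and 0.129). Neither RPS3 nor RPS6 passed the test, although their transfected arrays all lay above their controls.

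At 4 µg, set against the same control arrays, ribosomal protein transcripts again stood slightly below the control. At this dose 6 of 73 member probes fell (8.22%), while 20.6% of kept probes were called, 10.1% lower and 10.5% higher. No member was called higher by limma, and 3 had an unadjusted p under 0.05 in that direction (4.11%, against 18.3% of kept probes). The split depended on the scaling, since with each array scaled to the median of all its probes 2 members were called higher (RPL17 and RPL37) and 1 lower (RPL14), with the median change of all kept probes itself at 0.16. The log2 change was below 0 for 48 members (65.8%, against 48.4%), with a median of -0.09, against 0.0146 for all kept probes. The array medians at 4 µg were 12.63 and 12.62, below both controls, and the nearer control lay within the SD given above. By gene the large subunit median of -0.11 was -0.18 without control replicate 1 and -0.03 without control replicate 2. Both 4 µg arrays lay below both controls for 33 members (45.2%, against 31.3%) and above them for 11 (15.1%, against 33.9%). More than 1.5-fold separated 2 members from the control (2.74%, against 12.4%).

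The large subunit had 4 called probes and the small subunit 2, with median log2 changes over the probes of -0.10 and -0.06. None of the 41 members at 5000 or more was called, and 4 of them had an unadjusted p under 0.05, while 8.51% of the other probes as bright were called. All 6 calls lay among the 32 members under 5000 (18.8%), whose median was -0.26, and other kept probes under 5000 were called in 21.2% of cases.

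RPL14 had the largest change at 4 µg as well, at -0.81 on the log2 scale (SE 0.15, adjusted p = 0.00499), a 1.75-fold fall. Its call was lost only without 4 µg replicate 2 among the fits run, at an adjusted p of 0.0522. RPL37A, another zinc-finger protein of the large subunit, stood at 7.996 and 8.12 in the control, 7.75 and 7.73 at 2 µg and 7.54 and 7.39 at 4 µg, so that the groups did not overlap and 4 µg was the lowest. It fell by 0.59 at 4 µg (SE 0.13, adjusted p = 0.0113), and its change at 2 µg was -0.31 (adjusted p = 0.0815). The 4 µg call of RPL37A did not hold when control replicate 2 (adjusted p = 0.0692) or either 4 µg array (0.0521 and 0.103) was left out, nor with scaling to the median of all probes (0.111).

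The dimmer RPS23 probe fell by 0.56 at 4 µg (SE 0.12, adjusted p = 0.0122), where the brighter probe had a change of 0.04 (SE 0.20). RPS21 fell by 0.51 (SE 0.14, adjusted p = 0.0304), RPL26L1 by 0.48 (SE 0.15, adjusted p = 0.046) and RPL29 by 0.41 (SE 0.13, adjusted p = 0.0427). With scaling to the median of all probes limma called none of these probes. RPS21, RPL26L1 and RPL29 then had changes of -0.30, -0.28 and -0.21 (adjusted p = 0.249, 0.283 and 0.416). The dimmer RPS23 probe had -0.42 (adjusted p = 0.0879). The RPS23 call ended without control replicate 1 (adjusted p = 0.0748) or without either 4 µg array (0.0906 and 0.0784). For RPS21 the adjusted p was 0.06 and 0.16 without replicates 1 and 2 of the control, and 0.181 and 0.103 without those of 4 µg. RPL29 gave 0.159 and 0.106, and 0.168 and 0.212, when the same arrays were left out. RPL26L1 was called in the 1 fit that left out 2 µg replicate 2, with an adjusted p of 0.0503 to 0.251 in the other 5. None of the 6 calls at 4 µg held in all fits that left out an array.

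Among members not called, RPL17, which lines the peptide tunnel, had the highest change at 4 µg. It stood at 7.36 and 7.67 in the control, 7.75 and 7.42 at 2 µg and 8.04 and 7.97 at 4 µg, with the 4 µg arrays above the other 4. The log2 change was 0.49 (SE 0.16, adjusted p = 0.0519), and it was called with scaling to the median of all probes (0.67, adjusted p = 0.00841). Every call at 4 µg but that of RPL37A was of a probe also called at 2 µg, which shares the control arrays and so is not a separate observation.

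Set directly against each other, the doses differed for 1 of 73 member probes (1.37%), while 7.76% of kept probes were called, 4.82% higher and 2.94% lower at 4 µg. That was the dimmer probe of RPL34, a large subunit protein, with a log2 change of 0.73 from 2 µg to 4 µg (SE 0.18, adjusted p = 0.0399). The normalized values of this probe were 6.77 and 6.83 in the control, 6.20 and 6.62 at 2 µg and 6.91 and 7.37 at 4 µg, and it was detected on 5 of 6 arrays. Without control replicate 1 or 2 its adjusted p was 0.0695 or 0.07, without replicate 1 of 2 µg 0.188, and without replicates 1 and 2 of 4 µg 0.0645 and 0.251. With no background correction the change was 0.33 (adjusted p = 0.0662). RPL34's brighter probe gave 9.43 and 9.64, 9.36 and 9.15, and 9.27 and 9.21, with a change between the doses of -0.01 (SE 0.14). The median change of all members between the doses was 0.02. An unadjusted p under 0.05 was found for 7 members (9.59%, against 25.9% of kept probes). RPS21, RPL29 and RPL37 were nearer to the control at 4 µg than at 2 µg, by 0.36, 0.20 and 0.30, differences that did not pass the test (adjusted p = 0.145, 0.353 and 0.165).

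Paralogues could be followed in 3 of 6 pairs. RPL22L1, the paralogue of RPL22 that is known in the mouse to rise when RPL22 is lost, was detected on no array. Its scanner values were 113.1 and 110.0 in the control, 144.2 and 179.6 at 2 µg and 131.3 and 134.3 at 4 µg, with detection p-values from 0.117 to 0.98. The transfected arrays all gave higher readings than the controls, but each lay within the range of the negative control beads, so these readings set no level. When all probes were tested with no filter on detection, RPL22L1 had a log2 change of 0.64 at 2 µg (adjusted p = 0.172) and of 0.29 at 4 µg (adjusted p = 0.698). RPL22, which binds a small RNA of the Epstein-Barr virus besides its role in the large subunit, had changes of -0.17 (SE 0.15) and -0.10 (SE 0.13) for its 2 probes at 2 µg, and of -0.11 and -0.08 at 4 µg, none of them called.

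RPL26L1 fell at both doses, as given above, while RPL26, whose protein also binds the mRNA of p53, had changes of -0.23 and -0.12 (SE 0.12, adjusted p = 0.175 and 0.538). RPL26 stood at 14.06 and 14.05 in the control, 13.84 and 13.83 at 2 µg and 13.96 and 13.92 at 4 µg, with all transfected arrays below the control. RPL39L was called at 2 µg (-0.49) and RPL39 was not (-0.15, SE 0.12, adjusted p = 0.378). RPL39 is at the top of the intensity scale, where quantile normalization gave the brightest probe of every array the same value, 15.42 for RPL39 in both controls and for RPL6 in both 2 µg arrays. Whether the members of a pair differed in their change was not tested. RPL3L and RPL10L, the paralogues of RPL3 and RPL10 best known from muscle and testis, were detected on no array, and RPL3 and RPL10 had changes of -0.16 and -0.21 at 2 µg (SE 0.14).

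**Figure D4:**
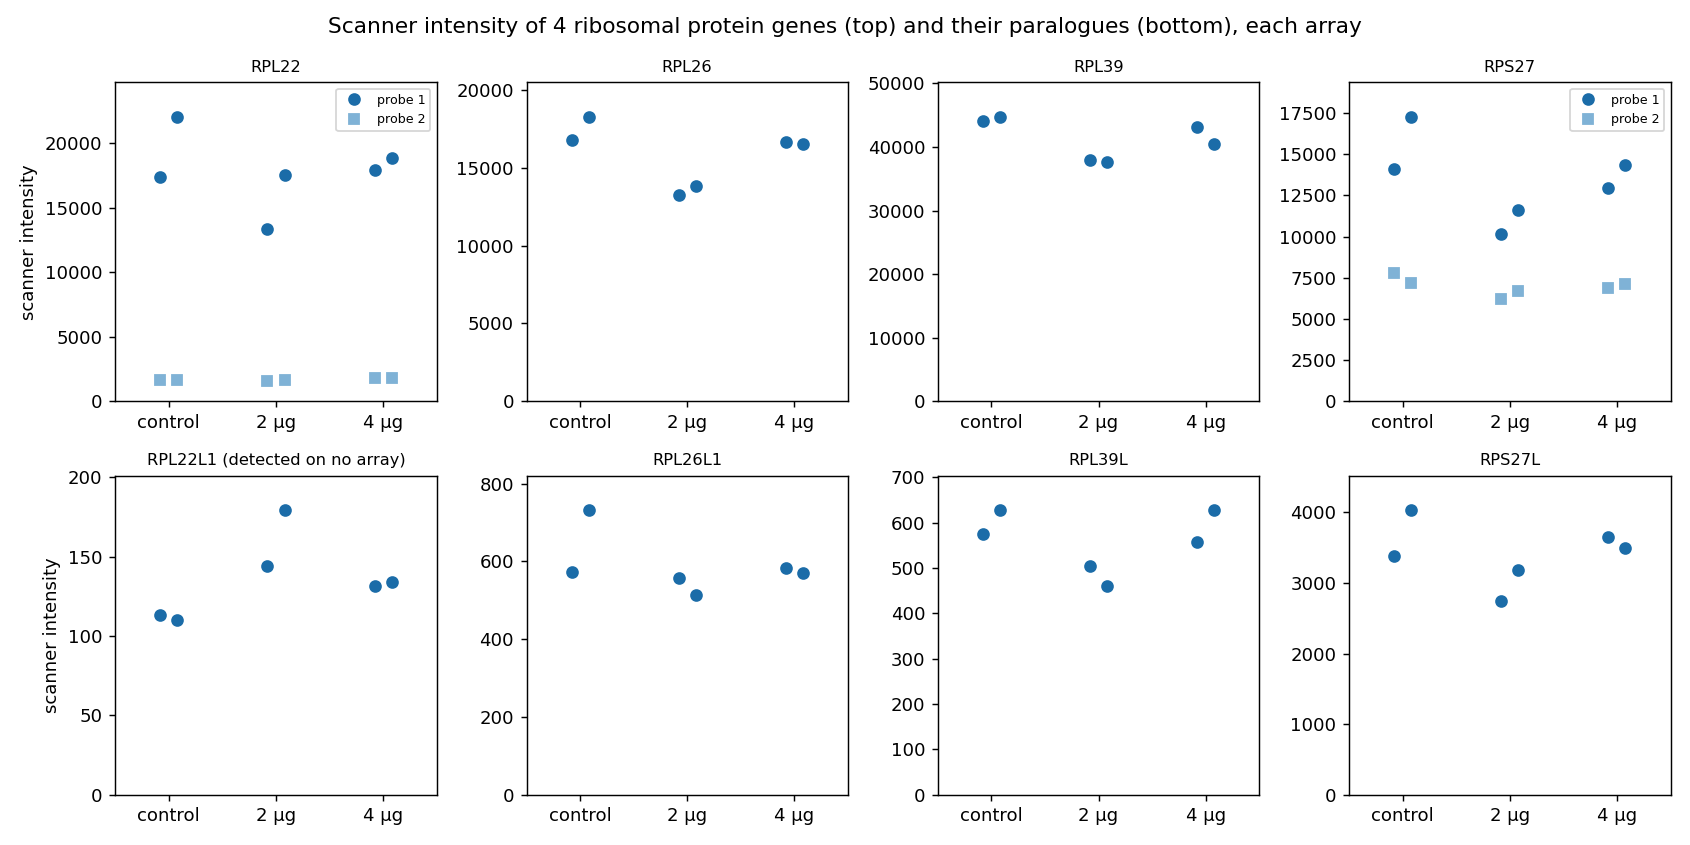
Scanner intensity of each array (points) by group for RPL22, RPL26, RPL39 and RPS27 (top) and for their paralogues (bottom), each panel on its own axis from 0; circles and squares are separate probes of a gene. RPL22L1 stays under 180, where it was detected on no array, and RPL39 lies between 37695 and 44775.

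For 10 genes several probes were kept, which gives a check of a gene against itself. Their log2 changes had the same sign for all probes of a gene in 9 of 10 genes at 2 µg and in 7 of 10 at 4 µg. The exceptions were RPS29 at 2 µg (-0.03 and 0.07) and RPL34, RPL6 and RPS23 at 4 µg. No gene had more than 1 called probe at a dose. Ribosomal protein genes have many processed pseudogenes with nearly the same sequence, and whether a probe also bound their transcripts was not tested.

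The other parts of the translation machinery are set beside the members by lists. Other mRNAs with a TOP tract, such as those of elongation and initiation factors, had 16 tested genes. At 2 µg none was called by limma, against 39.6% of kept probes. None had an unadjusted p under 0.05 at 2 µg, against 47.9% of kept probes. At 4 µg 1 fell, against 10.1% of kept probes called lower. The median log2 changes of this list were -0.10 and -0.12. The 1 gene was PABPC1, the cytoplasmic poly(A)-binding protein, at 11.66 and 11.72 in the control, 11.66 and 11.48 at 2 µg and 11.21 and 11.33 at 4 µg (-0.42, SE 0.13, adjusted p = 0.0484). FAU, whose product is cleaved to give a further small subunit protein, had changes of -0.29 and -0.21 (SE 0.13, adjusted p = 0.11 and 0.282).

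Most genes of the list of ribosomal RNA synthesis and ribosome assembly, which also held the transcription factor MYC, were called higher at 2 µg. Of 21 tested genes 17 rose and none fell at 2 µg, with a median log2 change of 0.55, and 4 rose and none fell at 4 µg, with a median of 0.25. Of all kept probes 19.8% and 10.5% were called higher at these doses. An unadjusted p under 0.05 in the lower direction was found for none of them at either dose. RRN3, which brings RNA polymerase I to the ribosomal RNA genes, stood at 9.48 and 9.34 in the control, 10.48 and 10.81 at 2 µg and 9.83 and 10.33 at 4 µg, with changes of 1.24 (SE 0.18, adjusted p = 0.000547) and 0.67 (adjusted p = 0.0272). RPF2, an assembly factor of the 5S particle, rose by 0.98 (SE 0.12, adjusted p = 0.000218) and 0.54 (adjusted p = 0.014). PES1, needed to process the RNA of the large subunit, rose at 2 µg by 0.84 (adjusted p = 0.000877). NMD3, which carries the large subunit out of the nucleus, rose by 0.78 and 0.52 (adjusted p = 0.00329 and 0.0419).

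Mitochondrial ribosomal proteins, which are encoded in the nucleus and build a separate ribosome, had 72 tested genes. At 2 µg 8 rose and 3 fell, with a median of 0.06, and at 4 µg 8 rose and 1 fell, with a median of 0.05. Of all kept probes 39.6% and 20.6% were called in either direction, a larger share. MRPL15 rose by 0.84 (SE 0.13, adjusted p = 0.000591) and 0.53 (adjusted p = 0.0164), and MRPS30 by 0.77 (adjusted p = 0.00172) and 0.58 (adjusted p = 0.0163). MRPL20 fell by 0.48 at 2 µg (adjusted p = 0.0243) and by 0.82 at 4 µg (adjusted p = 0.00453). In the plot of the 5 gene lists, the genes of the assembly list lie above 0 at 2 µg with UBTF (-0.07) as the exception. The difference between lists was not tested.

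**Figure D5:**
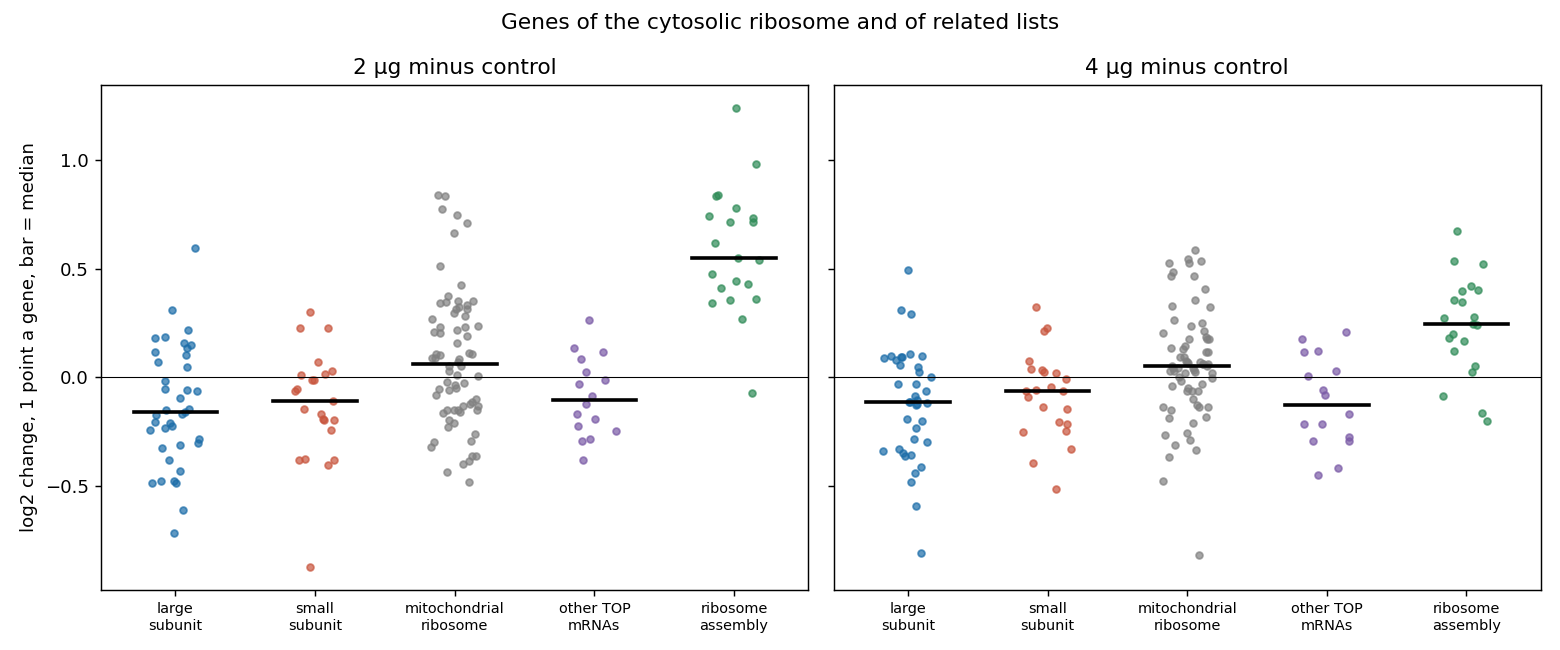
Log2 change against the control of each gene (points, the brightest kept probe) and the median of each list (bar) at 2 µg (left) and 4 µg (right). The ribosome assembly genes have the highest medians, 0.55 and 0.25, and the medians of both subunits lie below 0.

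Other transcripts also differed from the control. All 4 stress genes followed rose at both doses, among them DDIT3 and PPP1R15A of the integrated stress response. Their median log2 changes were 2.45 and 1.83, and 19.8% and 10.5% of kept probes were called higher. Between the doses all 4 were lower at 4 µg, with a median of -0.54, and 2 were called lower, against 2.94% of kept probes. Of 21 marker genes of other cell types on the arrays, 8 were kept, and none of 5 haematopoietic or 3 kidney tubule markers was. Both simple epithelium keratins were kept, with a summed normalized level of 3040 to 4280 in the control, 2130 to 2510 at 2 µg and 2460 to 2780 at 4 µg. KRT8 fell at both doses (log2 changes of -1.19 and -0.60), and KRT18 was called at neither (-0.33 and -0.37). Of 5 fibroblast markers 3 were kept, at a summed level of 463 to 482, 235 to 281 and 335 to 352, with COL1A2 and DCN not kept. COL1A1 and COL3A1 fell at both doses, while LUM fell at 2 µg (-0.73) and was not called at 4 µg (0.21). Of 3 neuronal markers 2 were kept (407 to 472, 129 to 195 and 172 to 192), with INA not kept. NEFL fell at both doses (-2.28 and -1.84), and NEFM was called at neither (-0.13 and -0.16). Of 3 endothelial markers VWF alone was kept (45.6 to 48.1, 109 to 131 and 89.5 to 105). Its control values, 5.51 and 5.59 in log2, lay below those of an RPL13 probe detected on no array (5.61 and 5.70). VWF thus passed the detection filter through transfected arrays only, and its control readings set no level. The part of these shifts in the changes of ribosomal protein transcripts was not tested. The precision of all these values is limited by the number of arrays, 2 per group.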

How the data were processed

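Total RNA was amplified, labelled with biotin and stained with streptavidin Cy3 for Illumina Human-6 arrays, per the labels' protocols, and BeadStudio was used, per the submitters' processing notes. The deposited scanner intensity is the mean over the beads of a probe, per the column headers, which do not say whether any background was subtracted. The deposited counts of beads had a median of 40 per probe. Detection p-values were deposited for each probe and array. The authors' processed intensity followed the scanner value along a straight line on each array, with a mean of 238.3, as found from the values; the sources used here do not give the software step or its version.

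Scanner intensities were processed with limma 3.58.1 in R 4.3.3. Its neqc function estimated background from the detection p-values, added an offset of 16, normalized by quantiles and took log2. The 10021 probes with a detection p under 0.01 on each of the duplicates of 1 group or more were fitted in 3 groups together (3 residual and 7.41 prior degrees of freedom), and two-sided p-values were adjusted by Benjamini-Hochberg over all of them. Probes carried symbols of the platform annotation (23687 with 1 symbol, 35 with several, 24979 with none). Probes detected numbered 9278 to 10371 per array. No pairing by replicate number was seen: the deviations of arrays with the same number correlated at -0.04, -0.09 and 0.11 between the pairs of groups. With duplicates these correlations cannot exclude a pairing.

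Named members were the 10 probes with the smallest p per comparison, the paralogue pairs, the stalk genes, RPL5, RPL11, RPS19, RPL13A, the 3 brightest and 3 dimmest probes, and genes whose probes disagreed; from other lists, the 3 genes with the smallest p per dose. RPS3, RPS6, RPS7, RPS26, RPL32, RPL36A and UBTF were singled out after their values were seen. Members, lists and tests were chosen with earlier results of these data known. Alternatives were the normalization, background, filter, variance model, samples in the fit, replicate block, probe of a gene, bright probes left out, and each array left out.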

Additional observations from a re-analysis of the deposited data

Results flagged for a closer look

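The dimmer probe of RPL34 (ILMN_1815133) had a different change at the 2 doses, with a log2 change of 0.73 from 2 µg to 4 µg by the test of that difference (SE 0.18, adjusted p = 0.0399). Its scanner values were 240 and 252 in the control, 218 and 225 at 2 µg and 258 and 328 at 4 µg, and it was detected on 5 of 6 arrays. With no background correction the change was 0.33 (adjusted p = 0.0662), and the detection p of 2 µg replicate 1 was 0.0386. The brighter RPL34 probe had a change of -0.01 between the doses. Without control replicate 1 or 2 the adjusted p was 0.0695 or 0.07, without 2 µg replicate 1 it was 0.188, and without 4 µg replicate 1 or 2 it was 0.0645 or 0.251.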

How the results depend on the processing

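Against the control 13 of 73 members were called at 2 µg and 6 at 4 µg, and 1 differed between the doses. Of the 10021 kept probes 3965, 2064 and 778 were called. With each array scaled to the median of all probes the member counts were 7, 3 and 2, beside 3433, 2278 and 1182 kept probes. With each scaled to the median of the tested probes the counts against the control were 21 and 16, beside 3929 and 2157 kept probes. Under the scaling to all probes the small subunit medians were -0.25 at 2 µg and 0.18 between the doses, where all kept probes had medians of -0.0003 and 0.15. Under that to the tested probes the small subunit medians were -0.27 at 2 µg and -0.27 at 4 µg, and the large subunit median at 4 µg was -0.29. With no background correction 13 were called at 4 µg and 0 between the doses, beside 2282 and 984 kept probes. With an offset of 50 the count at 4 µg was 10, beside 2296 kept probes, and with limma-trend it was 14, beside 2333. The gap between members and kept probes in the share called at 4 µg thus depended on the setting. With no detection filter the 3 counts were 8, 3 and 0 of 86 members, beside 3137, 1063 and 138 of 48701 probes. The count between the doses was also 0 with probes detected on all 6 arrays, with the compared groups fitted alone and with 1 probe per gene. In these settings 679, 643 and 720 probes were called in all. The first and the last leave out the dimmer RPL34 probe, the 1 member called between the doses, so they could not keep its call. Without 1 array in turn the counts ran from 5 to 8, from 0 to 7 and from 0 to 1. With the replicate number as a block they were 10, 4 and 1, beside 3931, 2032 and 776 kept probes, and no pairing was found. Leaving out members that reached 20000 or 32768 on any array gave 12, 6 and 1 and 13, 6 and 1. The fit was not repeated for these 6 counts, so a count could fall only by the called members left out. The median change of either subunit was below 0 at both doses under all 16 other settings and without each array, between -0.29 and -0.03. Of these settings, limma-trend, the replicate block, 1 probe per gene and detection on all 6 arrays kept the same values for these medians. They could not move them. The causes were not tested. Signal near the detection limit and near the top of the scale, and duplicates, limit what could be seen.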

Other observations

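RPS26, a small subunit protein at the exit of the mRNA channel that is mutated in Diamond-Blackfan anaemia, was kept out by the filter on detection and belongs to no comparison above. Its scanner values were 213.3 and 215.9 in the control, 190.2 and 183.4 at 2 µg and 212.1 and 223.2 at 4 µg, and it was detected on 1 array. With no filter it had a log2 change of -0.54 at 2 µg (adjusted p = 0.017) and of 0.04 at 4 µg (adjusted p = 0.941). It was the only one of the 13 members not kept that was called without the filter at 2 µg, and none was called at 4 µg or between the doses.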
